A study of Mus musculus with 18 samples.

Results

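The 10 genes described here carry hepcidin signalling and iron handling in the liver. They were chosen by name and comprise the hepcidin genes *Hamp* and *Hamp2*, the iron sensors *Hfe* and *Tfr2*, the BMP target *Id1*, the receptor *Tfrc* and the carrier *Trf*, the ferritin genes *Fth1* and *Ftl1*, and the exporter *Slc40a1*. All 10 were among the 15052 genes of the deposited table. Liver RNA was sequenced from 18 mice of the chronic-plus-binge model. Pair-fed mice numbered 4 WT and 5 *Apoe* KO, and the EtOH-fed groups held 5 WT and 4 *Apoe* KO mice. WT mice were C57BL/6J, and the *Apoe* KO mice lacked *Apoe* in every cell type, so that hepatocyte and macrophage *Apoe* were lost together. All mice were 10 to 12 weeks old and were acclimated to liquid diet for 5 days. EtOH-fed mice then received 5% ethanol for 10 days and an ethanol gavage of 5 g/kg on day 11, while pair-fed mice received an isocaloric diet and a dextrin-maltose gavage of 9 g/kg. Livers were taken 9 h after the gavage.

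Hepcidin is a peptide hormone made mainly by hepatocytes. It binds ferroportin, the product of *Slc40a1*, and removes it from the cell surface, so that less iron leaves macrophages, enterocytes and hepatocytes. Its transcription is raised by BMP ligands through SMAD proteins, with HFE, TFR2 and hemojuvelin as partners in sensing iron, and by IL-6 through STAT3. When cells lack iron, iron regulatory proteins bind stem-loops in mRNAs, which stabilises *Tfrc* mRNA and blocks translation of ferritin and ferroportin mRNA. Low hepcidin expression is a known feature of the alcohol-exposed liver.

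A value is the read count of a gene scaled by the authors to a nearly common total per mouse (32267493 to 32292618). The steps between low values gave an estimated depth of 5.60 to 52.2 M reads in 15 of the 18 mice, and no estimate in the other 3. It was 5.60 to 29.1 M in pair-fed WT mice and 24.6 to 52.2 M in 3 EtOH-fed WT mice. In 4 pair-fed KO mice it was 8.51 to 44.2 M. In EtOH-fed KO mice it was 45.9 M in mouse 1 and 7.87 to 13.5 M in the others. Depth thus went partly with group, and its part in the results was not tested. *Apoe* checked the genotype labels, with values of 611230 to 798431 in the 9 WT mice and 8586 to 108651 in the 9 KO mice. All mice were labelled female, but in EtOH-fed *Apoe* KO mouse 1 *Xist* was 826 (15227 to 30379 in the other 17) and *Ddx3y* was 1077 (2 to 118 in the others). Results that rest on that mouse are therefore also given without it. All 6 hepatocyte markers examined (such as *Alb* and *Ttr*) were listed, and at most 1 of them passed the test in any comparison.

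The sequences upstream of the hepcidin genes are shown first because *Hamp* and *Hamp2* are near-identical neighbours, and the few letters that differ include an element of BMP control. On GRCm38, *Hamp* lay at chr7:30942368-30944032 and *Hamp2* at chr7:30922372-30924681, both on the minus strand and 17.7 kb apart. Below are the 250 bases before each RefSeq transcription start (GRCm38.p6, chr7:30944030-30944279 for *Hamp* and chr7:30924182-30924431 for *Hamp2*), 5′ to 3′ on the minus strand. GENCODE M21 starts *Hamp2* farther upstream, so that its window lies within the annotated gene. Capitals mark the BMP-responsive element letters GGCGCC and matches to the STAT motif TTCNNNGAA.
Hamp: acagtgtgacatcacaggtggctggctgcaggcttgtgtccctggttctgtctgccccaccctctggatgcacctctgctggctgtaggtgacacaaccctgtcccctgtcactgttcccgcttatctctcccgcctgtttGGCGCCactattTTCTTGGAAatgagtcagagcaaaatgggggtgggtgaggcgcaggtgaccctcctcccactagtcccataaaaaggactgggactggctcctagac
Hamp2: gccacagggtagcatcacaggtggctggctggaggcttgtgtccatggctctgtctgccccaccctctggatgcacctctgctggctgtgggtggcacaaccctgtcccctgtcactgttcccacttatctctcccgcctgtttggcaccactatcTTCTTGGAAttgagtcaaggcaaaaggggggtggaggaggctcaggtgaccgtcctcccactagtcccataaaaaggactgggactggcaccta
Both motifs read the same on either strand, and the matches did not overlap. *Hamp* held GGCGCC at −109 and the STAT motif at −97 from the start. *Hamp2* held the STAT motif at −94 and no GGCGCC. The aligned letters differed by the substitution G145A, counted from 1 at the 5′ end of the *Hamp* window with the *Hamp* base first. The windows aligned with 227 identical bases, 20 substitutions and 6 gapped positions. Among 32851 RefSeq promoters, the 250 bases before the start held GGCGCC in 9.59% and the STAT motif in 7.02%. Of the 10 genes, 7 had a promoter in the table, and *Tfrc* was the only other one with either motif (GGCGCC at −89 of 1 of its 2 starts).

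*Hamp*, the main hepcidin gene of the mouse, was lower in EtOH-fed mice of both genotypes. In pair-fed WT mice the *Hamp* value was 41771, 53352, 26539 and 37598, and in EtOH-fed WT mice it was 29595, 3052, 5997, 730 and 18771. EtOH-fed WT mice thus spread over a 40.5-fold range, and mouse 1 of that group lay above the lowest pair-fed mouse. In pair-fed *Apoe* KO mice the value was 19757, 6261, 31579, 20269 and 9030, and in EtOH-fed *Apoe* KO mice it was 8397, 4659, 1388 and 3445. Here too the groups overlapped, since mouse 1 of the EtOH-fed KO group lay above mouse 2 of the pair-fed KO group.

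**Figure D1:**
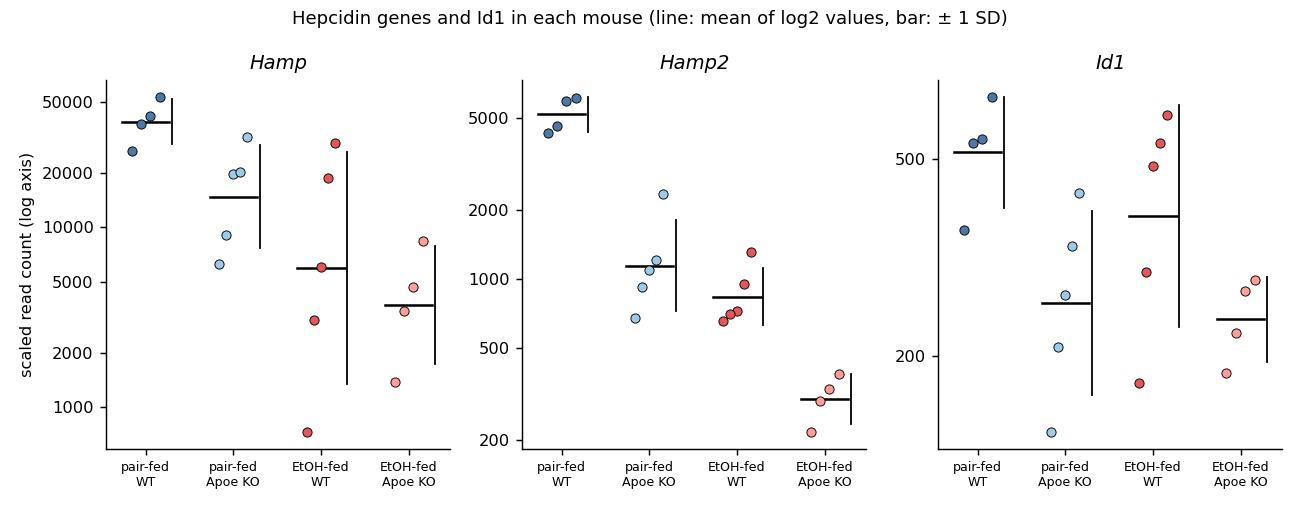
Scaled read count (log axis) of *Hamp*, *Hamp2* and *Id1* in each of the 18 mice, by group. Points are mice, lines are means of the log2 values and bars are ± 1 SD. *Hamp2* in the 4 pair-fed WT mice lies between 4293 and 6123, above all others, and *Hamp* in EtOH-fed WT mice spreads from 730 to 29595.

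On the log2(value + 1) scale, the EtOH difference of *Hamp* was −2.70 in WT mice (SE 0.80, 6.49-fold lower) and −2.0 in *Apoe* KO mice (SE 0.49, 4.01-fold lower). The adjusted p was 0.0411 and 0.0102 (limma, Benjamini-Hochberg over all genes). The call in *Apoe* KO mice was kept when any 1 mouse was left out, and without EtOH-fed KO mouse 1 the difference was −2.40 (adjusted p = 0.00448). The call in WT mice was lost without pair-fed WT mouse 1, 2, 3 or 4 or EtOH-fed WT mouse 2 or 3, with an adjusted p of 0.0566 to 0.107. The call in *Apoe* KO mice also ended when all 4 groups shared 1 estimate of the spread (adjusted p = 0.0571). The 95% interval of the difference between the EtOH responses of the 2 genotypes (KO minus WT) ran from −1.51 to 2.91, and its adjusted p was 0.792. In bulk liver, fewer cells of a type and less RNA per cell cannot be told apart.

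*Hamp2*, the second mouse hepcidin gene, was lower in EtOH-fed mice of both genotypes and in *Apoe* KO mice of both diets. Its value was 4293, 6123, 5940 and 4601 in pair-fed WT mice and 1305, 948, 728, 659 and 702 in EtOH-fed WT mice. It was 1096, 679, 2329, 1209 and 922 in pair-fed *Apoe* KO mice and 332, 389, 217 and 296 in EtOH-fed *Apoe* KO mice. Every pair-fed WT mouse was above every other mouse, and every EtOH-fed KO mouse was below every other mouse. Pair-fed KO and EtOH-fed WT mice, which differ in both diet and genotype, overlapped.

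With EtOH, *Hamp2* differed by −2.62 in WT mice (SE 0.19, 6.16-fold lower, adjusted p = 6.29e-06, limma) and by −1.91 in *Apoe* KO mice (SE 0.28, 3.77-fold lower, adjusted p = 0.000423, limma). Between genotypes, it differed by −2.18 in pair-fed KO against WT mice (SE 0.26, adjusted p = 0.000707, limma) and by −1.47 in EtOH-fed KO against WT mice (SE 0.21, adjusted p = 0.00293, limma). All 4 calls held when any 1 mouse was left out. The EtOH responses of the genotypes differed by 0.71 (95% interval −0.07 to 1.48, adjusted p = 0.354, limma).

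*Hamp* itself did not pass the test between genotypes. It was 2.61-fold lower in pair-fed KO than WT mice (log2 difference −1.38, 95% interval −2.18 to −0.58, adjusted p = 0.072, limma). It passed in 1 of 9 fits that left out a mouse, that without pair-fed KO mouse 3 (adjusted p = 0.0309, limma). The adjusted p of the others reached 0.203. In EtOH-fed mice the genotype difference was −0.68, with an interval from −2.52 to 1.15 (adjusted p = 0.731, limma).

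The ratio of *Hamp* to *Hamp2* had a median of 8.44 in pair-fed and 8.23 in EtOH-fed WT mice, and of 13.6 in pair-fed and 11.8 in EtOH-fed KO mice. Its log2 value was 0.80 higher in pair-fed KO than WT mice (exact permutation test, two-sided, p = 0.0317, adjusted over 8 ratio comparisons 0.254). In EtOH-fed WT mice the ratio ran from 1.11 to 26.7. The coding sequences of both genes had 236 identical bases and 16 substitutions, and the longest stretch shared by their transcripts was 87 bases. How the authors' counting treated reads that match both genes is not given in the sources used here, so the split of reads between them is uncertain.

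*Hamp* and *Hamp2* lie 11.2 Mb from *Apoe* on chromosome 7. A targeted gene can carry flanking DNA of the strain in which it was made, and such DNA goes with the genotype. Of the 402 tested genes within 20 Mb of *Apoe*, 7.46% passed the test in pair-fed KO against WT mice, beside 1.73% of all 15052 genes, and 10.9% beside 4.69% in EtOH-fed mice. These 402 genes include *Apoe* itself, *Hamp* and *Hamp2*. For the genotype difference of *Hamp2*, loss of *Apoe* and the linked region cannot be told apart. The EtOH comparisons are within genotype. Of the other 47 tested genes that start within 1 Mb of *Hamp*, 7 passed the test with EtOH in WT mice and 7 in KO mice (14.9% in each, beside 12.7% and 23.2% of all genes). Between genotypes, 1 of these 47 passed in pair-fed and 1 in EtOH-fed mice (2.13% in each, beside 1.73% and 4.69% of all genes).

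*Hfe* (chr13:23702034-23710854, minus strand), which encodes the HFE protein that links transferrin-bound iron to hepcidin, rose with EtOH in both genotypes. Its value was 1164, 1330, 1504 and 1165 in pair-fed WT and 1710, 1698, 1556, 1540 and 1686 in EtOH-fed WT mice. It was 1327, 1220, 1384, 1557 and 1247 in pair-fed KO and 2018, 1735, 1797 and 1603 in EtOH-fed KO mice. Neither pair of groups overlapped. *Hfe* was 1.27-fold higher with EtOH in WT mice (log2 difference 0.35, SE 0.11, adjusted p = 0.0447, limma) and 1.33-fold higher in KO mice (0.41, SE 0.10, adjusted p = 0.0118, limma). The call in WT mice held in 1 of 9 fits that left out a mouse, that without pair-fed WT mouse 3. The adjusted p of the other 8 reached 0.118, and it was 0.0587 with median-of-ratios scaling. In KO mice it was 0.35 without mouse 1 (adjusted p = 0.0356, limma), and with median-of-ratios scaling it was 0.28 (adjusted p = 0.0808, limma). That scaling moved the median difference of all genes in KO mice from 0.13 to 0.0018.

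*Tfr2* (chr5:137569840-137587481, plus strand), the transferrin receptor that serves as an iron sensor in hepatocytes, was lower with EtOH in *Apoe* KO mice. It was 17156, 15549, 16757, 17147 and 16359 in pair-fed KO mice and 16560, 11961, 12093 and 12154 in EtOH-fed KO mice. The 3 EtOH-fed KO mice other than mouse 1 lay below all pair-fed KO mice, and mouse 1 lay among them. The log2 difference was −0.34 (SE 0.11, adjusted p = 0.031, limma). Without mouse 1 it was −0.46 (adjusted p = 0.00256, limma). The call was lost without pair-fed KO mouse 1, 3 or 4 or EtOH-fed KO mouse 2, 4 or 5, with an adjusted p of up to 0.0877. In WT mice *Tfr2* was 13720, 15681, 13244 and 13739 when pair-fed and 14252, 13081, 12871, 12907 and 12917 when EtOH-fed, a difference of −0.09 (95% interval −0.30 to 0.11).

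*Id1* (chr2:152736251-152737410, plus strand), a helix-loop-helix gene switched on by BMP signalling, did not pass the test in any comparison, and its mean was lower in *Apoe* KO mice on both diets. Its value was 668, 539, 359 and 551 in pair-fed WT and 265, 140, 428, 333 and 208 in pair-fed KO mice. It was 615, 295, 485, 176 and 540 in EtOH-fed WT and 270, 222, 184 and 285 in EtOH-fed KO mice. The groups overlapped in both diets. The genotype difference was −1.01 in pair-fed mice (95% interval −1.60 to −0.42, adjusted p = 0.0721, limma) and −0.70 in EtOH-fed mice (−1.37 to −0.03, adjusted p = 0.244, limma). When a mouse was left out, the first passed in 2 of 9 fits, without pair-fed WT mouse 3 (adjusted p = 0.0397, limma) or pair-fed KO mouse 3 (0.0412). The second passed in 1 of 9, without EtOH-fed WT mouse 4 (0.0358). The adjusted p of the other fits reached 0.204 for the first and 0.475 for the second. With EtOH, *Id1* differed by −0.43 in WT mice (−1.11 to 0.25) and by −0.11 in KO mice (−0.70 to 0.48).

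Within groups, mice with more *Hamp* had more *Id1*. The order of the 5 mice by *Hamp* and by *Id1* was identical in pair-fed KO and in EtOH-fed WT mice. In the 2 groups of 4 mice, Spearman's rho was 0.4. Over the 18 mice, with each group's mean subtracted, Pearson's r between log2 *Hamp* and log2 *Id1* was 0.885 (permutation within groups, p = 2e-05, adjusted over 15 relations 0.0003) and Spearman's rho was 0.816 (p = 0.0009, adjusted 0.0045). Without the 2 mice farthest from the median of *Hamp*, EtOH-fed WT mice 1 and 4, r was 0.812. This relation and the 14 others were chosen after the values had been seen.

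**Figure D2:**
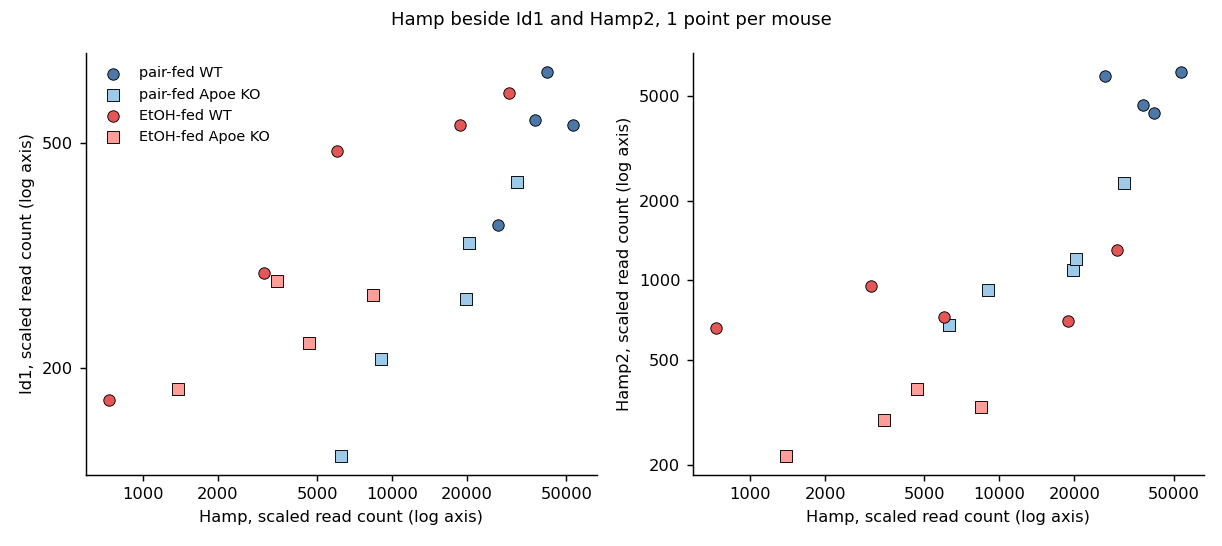
Scaled read counts of *Id1* and of *Hamp2* (y axes, log) against *Hamp* (x axis, log), 1 point per mouse, with circles for WT, squares for *Apoe* KO, blue for pair-fed and red for EtOH-fed mice. *Id1* rises with *Hamp* within the groups of 5 mice, and the 4 EtOH-fed KO mice have the lowest *Hamp2* values (217 to 389).

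The other BMP and SMAD targets examined differed in their relation to *Hamp*. For *Atoh8*, r was 0.870 (permutation, p = 4e-05, adjusted 0.0003) and rho 0.835 (p = 0.00045, adjusted 0.00337), and for *Id3* r was 0.835 (p = 0.00154, adjusted 0.0077) and rho 0.822 (p = 0.0004, adjusted 0.00337). Without those 2 mice, r was 0.812 and 0.752. For *Hamp2*, r was 0.589 (permutation, p = 0.0129, adjusted 0.0387) and rho 0.610 (p = 0.0183, adjusted 0.0458), and for *Tfr2* r was 0.481 (p = 0.0155, adjusted 0.0387) and rho 0.606 (p = 0.00333, adjusted 0.0125). Without the same 2 mice, r was 0.503 and 0.523. For *Id2*, r was 0.477 (permutation, p = 0.108, adjusted 0.162) and rho 0.298 (p = 0.274, adjusted 0.412), and r was 0.171 without those mice. For *Smad6*, an inhibitory SMAD, r was 0.018 (permutation, p = 0.942, adjusted 0.942) and rho −0.022 (p = 0.943, adjusted 0.943), and r was −0.102 without those mice. For *Smad7*, another inhibitory SMAD, r was 0.631 (p = 0.0458, adjusted 0.0982) and rho 0.488 (p = 0.108, adjusted 0.181), and r was 0.298 without those mice. For *Socs3*, the STAT3 target, r was −0.065 (p = 0.813, adjusted 0.871) and rho was −0.127 (p = 0.64, adjusted 0.739), and r was −0.347 without those mice. Of the 15 relations, 6 had an adjusted p under 0.05. How many of all genes relate to *Hamp* as closely within groups was not computed. The genes of each relation share libraries and scaling.

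Among 11072 genes with a mean value of at least 100, those most like *Hamp* over the 18 mice, by Pearson's r of log2 values without centring, were *H2-Q10* (0.893), *Igsf5* (0.888), *Prdx6* (0.881), *Tst* (0.877) and *Usf2* (0.866). *Usf2* is the gene next to *Hamp*, with 1.22 kb between them. *Hamp2* ranked 82 in that order (0.777) and *Id1* ranked 152 (0.747). Those most like *Id1* were *Gm10221* (0.822), *Lgals4* (0.821), *Jtb* (0.821), *Uqcrh* (0.817) and *Mrpl51* (0.808). These are descriptions over mice of 4 groups and carry no test.

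*Tfrc* (chr16:32608920-32632794, plus strand), the transferrin receptor for cellular iron uptake, rose with EtOH in *Apoe* KO mice. Its value was 827, 672, 488, 668 and 769 in pair-fed KO mice and 956, 1401, 1453 and 1377 in EtOH-fed KO mice. The groups did not overlap, and mouse 1 was the lowest of the EtOH-fed KO mice. *Tfrc* was 1.90-fold higher (log2 difference 0.92, SE 0.16, adjusted p = 0.00149, limma), and without mouse 1 the difference was 1.06 (adjusted p = 0.000773). In WT mice it was 709, 736, 623 and 903 when pair-fed and 730, 895, 1479, 826 and 987 when EtOH-fed. These groups overlapped, with a difference of 0.37 (95% interval −0.02 to 0.77, adjusted p = 0.204, limma). In EtOH-fed KO against WT mice it was 0.42 (0.01 to 0.83, adjusted p = 0.246, limma). The EtOH responses differed between genotypes by 0.55 (0.01 to 1.09), which did not pass the test (adjusted p = 0.301, limma).

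Matches to the stem-loop that iron regulatory proteins bind are shown next, because this control acts on *Tfrc*, ferritin and ferroportin in opposite ways, through opposite ends of the mRNA. The search was for a C, 5 bases, CAGTGN and 5 bases that pair with the first 5, where N is not G and G-T pairs count. It ran on the transcript with the longest coding sequence of each gene in GENCODE M21 (GRCm38). The 4 matches of *Tfrc* lay in the 3′ UTR, in the last of 19 exons on the plus strand, at chr16:32631225-32631241, chr16:32631604-32631620, chr16:32631669-32631685 and chr16:32631716-32631732. *Ftl1* (chr7:45459785-45459801, minus strand, exon 1 of 4), *Fth1* (chr19:9982738-9982754, plus strand, exon 2 of 5) and *Slc40a1* (chr1:45925471-45925487, minus strand, exon 1 of 8) each had 1 match in the 5′ UTR. Each match is 17 bases long, and capitals mark the loop.
Tfrc at 32631225: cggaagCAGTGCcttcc
Tfrc at 32631604: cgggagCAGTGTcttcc
Tfrc at 32631669: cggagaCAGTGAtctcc
Tfrc at 32631716: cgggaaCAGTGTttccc
Fth1: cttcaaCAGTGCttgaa
Ftl1: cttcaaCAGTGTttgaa
Slc40a1: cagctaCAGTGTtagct
The transcripts of *Hamp*, *Hamp2*, *Hfe*, *Tfr2*, *Id1* and *Trf* held no match. Of 12556 tested genes searched, 70 (0.557%) had a match in a UTR, and *Tfrc* was the only one with more than 1.

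The genes most like *Tfrc* over the 18 mice were *Cd34* (r = 0.941), *Tanc1* (0.933), *Cd38* (0.928), *Utp14a* (0.911) and *Adam15* (0.910). Red cell precursors carry much TFRC, and some erythroid markers rose in the same comparison. Of the 4 such markers analysed here, 2 rose with EtOH in KO mice (beside 23.2% of all genes called). Another of the 4, *Alas2*, which is also a heme gene below, did not rise (−0.13, adjusted p = 0.644, limma). The summed value of the 4 markers was 1368 to 5137 in pair-fed KO and 4193 to 10985 in EtOH-fed KO mice. Their part in the *Tfrc* result was not tested.

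*Trf* (chr9:103204001-103230444, minus strand), which encodes transferrin, the iron carrier of plasma, did not pass the test in any comparison. It was 479336, 434603, 488847 and 381971 in pair-fed WT and 584247, 622622, 612172, 556463 and 616212 in pair-fed KO mice. With EtOH it was 533396, 533706, 342187, 482487 and 367359 in WT and 564586, 440778, 478831 and 432471 in KO mice. All pair-fed KO mice lay above all pair-fed WT mice. That difference was 0.43 (95% interval −0.03 to 0.88, adjusted p = 0.283, limma), and 7.03% of all genes had groups that did not overlap in this comparison. With EtOH the interval was −0.47 to 0.47 in WT and −0.71 to 0.05 in KO mice.

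*Fth1* (chr19:9980598-9985098, plus strand) and *Ftl1* (chr7:45457944-45459884, minus strand), the heavy and light chains of ferritin, in which iron is stored, rose with EtOH in *Apoe* KO mice. *Fth1* was 57171, 45522, 54664, 53823 and 52930 in pair-fed KO and 77231, 69289, 73608 and 79622 in EtOH-fed KO mice. *Ftl1* was 30605, 22697, 27103, 30283 and 29463 in pair-fed KO and 48138, 39949, 37299 and 45052 in EtOH-fed KO mice. For both genes all EtOH-fed KO mice lay above all pair-fed KO mice. The log2 difference was 0.51 for *Fth1* (SE 0.11, 1.42-fold, adjusted p = 0.00442, limma) and 0.61 for *Ftl1* (SE 0.12, 1.52-fold, adjusted p = 0.00267, limma). Without mouse 1 it was 0.49 (adjusted p = 0.00928) and 0.54 (adjusted p = 0.00775).

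In WT mice the ferritin genes were also higher on average, but the groups overlapped. *Fth1* was 52771, 61730, 53082 and 52158 when pair-fed and 63639, 68180, 75483, 54709 and 79975 when EtOH-fed. *Ftl1* was 28045, 31977, 30771 and 23058 when pair-fed and 41113, 33182, 44115, 26273 and 44018 when EtOH-fed. EtOH-fed WT mouse 4, which also had the lowest *Hamp*, had the lowest value of its group for both chains. The differences were 0.31 (95% interval 0.01 to 0.61, adjusted p = 0.17, limma) and 0.39 (0.03 to 0.75, adjusted p = 0.143, limma). Without mouse 4, that of *Ftl1* was 0.51 (adjusted p = 0.043, limma). That was the only 1 of 9 fits without a mouse in which *Ftl1* passed, and the adjusted p of the others reached 0.328. Within groups, *Ftl1* was also higher in mice with more *Hamp* (r = 0.734, permutation p = 0.00562, adjusted 0.0211, and rho = 0.703, p = 0.00733, adjusted 0.022), with r = 0.595 without EtOH-fed WT mice 1 and 4. The same relation of *Fth1* did not pass (r = 0.578, permutation p = 0.0762, adjusted 0.127, and rho = 0.467, p = 0.104, adjusted 0.181), with r = 0.600 without those mice. The ratio of *Ftl1* to *Fth1* stayed between 0.442 and 0.646 in all 18 mice.

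*Slc40a1* (chr1:45908068-45926523, minus strand), which encodes ferroportin, the iron exporter that hepcidin removes, did not pass the test in any comparison. Its value was 6702, 4921, 5974 and 4850 in pair-fed WT and 6336, 5052, 5308, 6535 and 6798 in pair-fed KO mice. With EtOH it was 5271, 5333, 4117, 4671 and 6062 in WT and 6361, 5006, 6419 and 6748 in KO mice. All groups compared overlapped. With EtOH the 95% interval was −0.43 to 0.15 in WT and −0.22 to 0.28 in KO mice. Between genotypes it was −0.16 to 0.36 in pair-fed mice and −0.0025 to 0.55 in EtOH-fed mice (adjusted p = 0.674 and 0.269, limma).

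**Figure D3:**
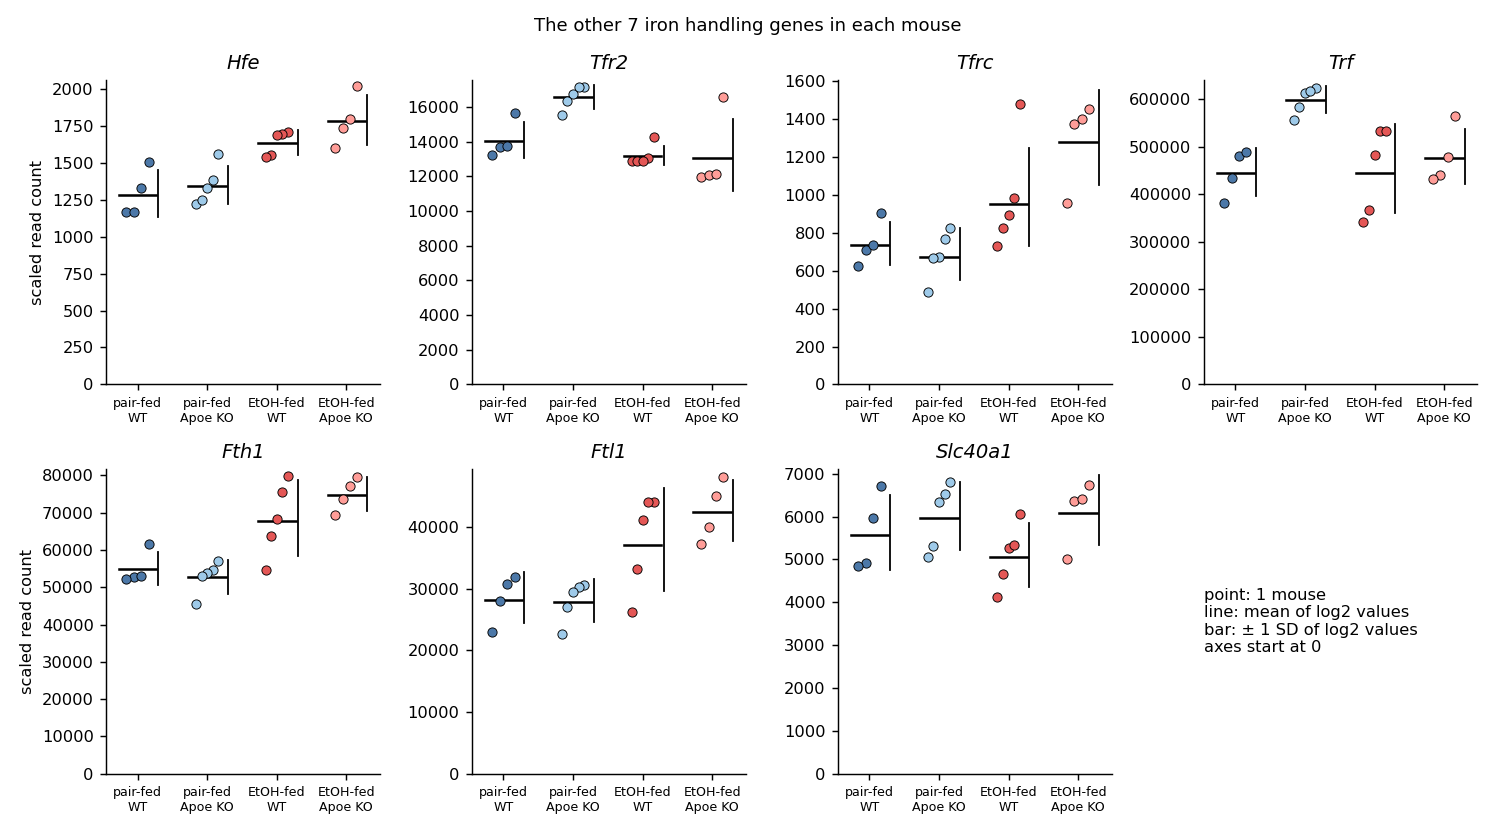
Scaled read count of the other 7 genes in each mouse, by group, on axes that start at 0. Points are mice, lines are means of the log2 values and bars are ± 1 SD of the log2 values. *Tfrc*, *Fth1*, *Ftl1* and *Hfe* in EtOH-fed KO mice lie above all pair-fed KO mice, and *Slc40a1* overlaps between all groups.

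Per kb of annotated exon, the mean value in pair-fed WT mice was 134394 for *Trf* and 97110 for *Hamp*, whose ranges over mice overlapped. *Ftl1* (21241) and *Fth1* (15836) followed and overlapped each other. Then came *Hamp2* (8987) and *Tfr2* (3251). *Slc40a1* (624), *Id1* (456) and *Hfe* (361) followed, each overlapping the next, and *Tfrc* (120) was the lowest. In EtOH-fed KO mice *Hamp* stood at 10908 per kb, below *Ftl1* (31798) and *Fth1* (21602), and *Hamp2* stood at 529. The exon length counts every annotated exon of a gene, 3469 bases for *Fth1*, 1340 for *Ftl1* and 9000 for *Slc40a1*. The transcripts searched for stem-loops had 1494, 968 and 3370 bases, so the order depends on the length used.

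With EtOH in WT mice, 3 of the 10 genes passed the test (*Hamp*, *Hamp2* and *Hfe*), where 12.7% of all genes did. For 2 of the 10 (*Hamp2* and *Hfe*) these groups did not overlap, against 14.4% of all genes. In *Apoe* KO mice 7 of 10 passed, where 23.2% of all genes did, and 5 had groups that did not overlap, against 20%. Between genotypes, *Hamp2* alone passed in each diet, where 1.73% of all genes passed in pair-fed and 4.69% in EtOH-fed mice. Groups did not overlap for 2 of the 10 in pair-fed mice (*Hamp2* and *Trf*, against 7.03% of all genes) and for *Hamp2* in EtOH-fed mice (against 8.13%). None passed for the difference in EtOH response between genotypes (limma), where 2.84% of all genes did. Of the 10, *Tfrc* alone had an unadjusted p under 0.05 there (0.0478). The median difference of the 10 genes was −0.05 with EtOH in WT and −0.04 in KO mice, beside −0.01 and 0.13 for all genes.

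**Figure D4:**
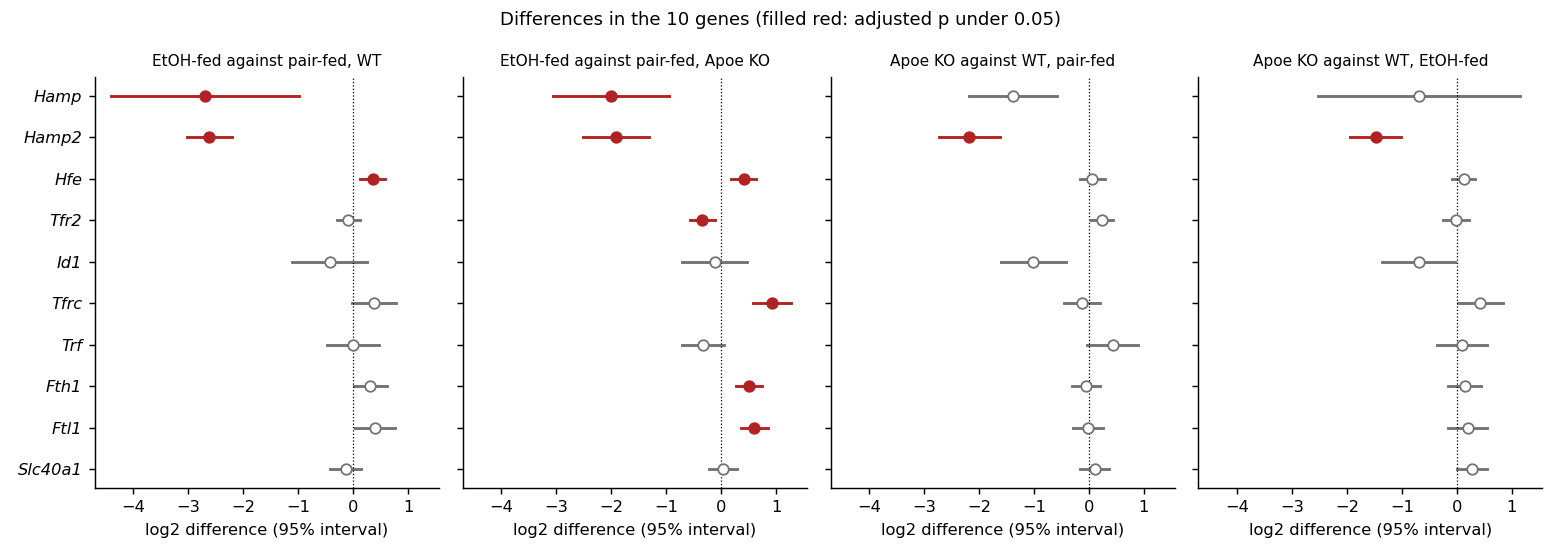
Log2 difference of the 10 genes in the 4 comparisons, with 95% intervals as bars. Filled red points passed the test (adjusted p under 0.05), 3 in the EtOH comparison of WT mice, 7 in that of KO mice, and *Hamp2* alone in each comparison of genotypes.

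The other genes of the pathway were read from 6 lists with 73 genes, of which 69 were listed. Of these, 11 passed the test with EtOH in WT mice (8 higher and 3 lower) and 25 in KO mice (11 higher and 14 lower). These were 15.9% and 36.2% of the listed genes, beside 12.7% and 23.2% of all genes. Between genotypes 3 passed in pair-fed and 2 in EtOH-fed mice (4.35% and 2.90%, beside 1.73% and 4.69% of all genes). *Erfe*, *Il6*, *Cybrd1* and *Ftmt* were not listed.

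Of the BMP and SMAD genes that control hepcidin, 20 of 21 were listed, and 2 rose with EtOH in WT and 3 in KO mice (10% and 15% of the list, below the 12.7% and 23.2% of all genes). *Bmp2*, a ligand from liver endothelium that raises hepcidin, rose in both, from 504.5 ± 52.0 (SD, n = 4) to 820 ± 97.5 (n = 5) in WT and from 317 ± 52.8 (n = 5) to 707 ± 213 (n = 4) in KO mice. The differences were 0.70 (SE 0.13, adjusted p = 0.00373, limma) and 1.13 (SE 0.20, adjusted p = 0.00133, limma). In these EtOH comparisons *Hamp* and *Hamp2* were lower. In pair-fed mice, KO mice, in which *Hamp2* was lower, also had less *Bmp2* than WT mice (−0.68, adjusted p = 0.0361, limma), a call kept in 4 of 9 fits that left out a mouse. Of 6 sinusoidal endothelial markers, 4 rose with EtOH in WT and 5 in KO mice (beside 12.7% and 23.2% of all genes called). Their summed value was 5965 to 6790 in pair-fed WT, 7390 to 11036 in EtOH-fed WT, 4226 to 6016 in pair-fed KO and 6672 to 11259 in EtOH-fed KO mice, and their part in the *Bmp2* result was not tested.

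The remaining calls in this list were close to the threshold. *Id2*, a BMP target, rose in WT mice (0.52, adjusted p = 0.041, limma), and the call was kept in 2 of 9 fits that left out a mouse and lost with mouse weights (adjusted p = 0.0539). *Hjv*, which encodes hemojuvelin, the BMP co-receptor of hepcidin control, rose in KO mice (0.41, adjusted p = 0.0403, limma), as did *Id3* (0.59, adjusted p = 0.0395, limma). Without EtOH-fed KO mouse 1 both missed the threshold (adjusted p = 0.0949 and 0.104), as they did with median-of-ratios scaling (0.200 and 0.0956). *Bmp6*, the main iron-responsive ligand, was named after its values were seen. It had mean values of 102.5 in pair-fed WT, 125 in EtOH-fed WT, 78.8 in pair-fed KO and 142 in EtOH-fed KO mice and did not pass.

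Of the IL-6 and STAT3 genes, 6 of 7 were listed, and 1 rose with EtOH in WT and 2 fell in KO mice. These were 16.7% and 33.3% of the listed genes, beside 12.7% and 23.2% of all genes. *Socs3*, a STAT3 target, fell with EtOH in KO mice by 1.32 (SE 0.17, adjusted p = 0.000186, limma), from 741 ± 151 (n = 5) to 295 ± 56.6 (n = 4). *Il6ra*, the IL-6 receptor, fell by 0.71 (SE 0.12, adjusted p = 0.0013, limma). Both calls held when any 1 mouse was left out. In pair-fed KO against WT mice *Socs3* differed by 0.78 (adjusted p = 0.0519, limma), and in EtOH-fed mice by −0.02 (adjusted p = 0.97, limma). In WT mice *Socs3* differed by −0.52 (adjusted p = 0.116) and *Il6ra* by −0.49 (adjusted p = 0.0885), while *Jak1*, a kinase of this arm, rose by 0.41 (adjusted p = 0.0493, limma) and kept its call in 2 of 9 fits that left out a mouse but not with median-of-ratios scaling (adjusted p = 0.057).

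Of the iron uptake and export genes, 10 of 11 were listed, and 2 rose and 4 fell with EtOH in KO mice. These 2 and 4 were 60% of the listed genes, beside 23.2% of all genes. *Lcn2*, a siderophore-binding protein, rose by 1.16 (SE 0.22, adjusted p = 0.0021, limma, and 0.0609 with all 4 groups in 1 fit). It was 4.78-fold higher in EtOH-fed KO than EtOH-fed WT mice (adjusted p = 0.00456, limma). *Heph*, a ferroxidase, rose by 1.09 (adjusted p = 0.0248, limma) at low values of 38.4 ± 12.6 (n = 5) and 81 ± 18.6 (n = 4), and missed the threshold without pair-fed KO mouse 3 or EtOH-fed KO mouse 4 or 5 (adjusted p of 0.0558 to 0.0723). The metalloreductases *Steap2* and *Steap4* fell, with differences of −0.57 and −0.67 (adjusted p = 0.0118 and 0.00871, limma). The importer *Slc39a8* rose by 0.41 in WT mice (adjusted p = 0.0451, limma, call kept in 2 of 9 fits that left out a mouse). *Steap3* was 1.53-fold higher in pair-fed KO than WT mice (adjusted p = 0.0267, limma, kept in 4 of 9).

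Of 7 genes for iron storage and iron regulatory proteins, 6 were listed. With EtOH, 1 rose in WT mice, and 1 rose and 1 fell in KO mice. These were 16.7% and 33.3% of the listed genes, beside 12.7% and 23.2% of all genes. *Pcbp1*, an iron chaperone that delivers iron to ferritin, rose by 0.35 in WT (adjusted p = 0.0344, limma, kept in 2 of 9 fits that left out a mouse and 0.0509 with mouse weights) and by 0.42 in KO mice (adjusted p = 0.0102, limma). *Aco1*, which encodes iron regulatory protein IRP1, fell by 0.47 in KO mice (SE 0.10, adjusted p = 0.00399, limma). Of 7 mitochondrial iron and iron-sulfur cluster genes, all listed, *Abcb10* alone passed, and it fell by 0.64 in KO mice (adjusted p = 0.00359, limma). That was 14.3% of the list with EtOH in KO mice, beside 23.2% of all genes.

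Of 20 heme genes, 3 rose, 3 fell and 14 did not pass with EtOH in WT mice (30% called, beside 12.7% of all genes), and 5 rose, 6 fell and 9 did not pass in KO mice (55% beside 23.2%). *Hmox1*, the heme oxygenase that frees iron from heme, rose 5.44-fold in WT (658 ± 176, n = 4, to 3819 ± 1829, n = 5, adjusted p = 0.000209, limma) and 7.51-fold in KO mice (1462 ± 796, n = 5, to 10461 ± 4546, n = 4, adjusted p = 0.000103, limma). *Alas1* and *Alad*, the first enzymes of heme synthesis, fell, with differences of −0.91 and −0.82 in WT and −1.01 and −0.80 in KO mice, with adjusted p between 0.000248 and 0.00476 (limma). These 3 genes kept their calls when any 1 mouse was left out. *Flvcr2*, a transporter described for heme, rose by 0.84 in WT mice (adjusted p = 0.0179, limma) and missed the threshold in 1 of 9 fits that left out a mouse (adjusted p = 0.0591).

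Between genotypes, *Hmox1* was 2.81-fold higher in EtOH-fed KO than WT mice (adjusted p = 0.0194, limma, kept in 6 of 9 fits). *Cd163*, the macrophage receptor for haemoglobin, was 3.76-fold lower in pair-fed KO than WT mice (479 ± 89.5, n = 4, against 130 ± 43.9, n = 5, adjusted p = 0.000541, limma) and rose 2.64-fold with EtOH in KO mice (adjusted p = 0.0049, limma). Its EtOH response differed between genotypes by 1.67 (adjusted p = 0.019, limma), the only such call in the 6 lists. Of 6 Kupffer cell markers, 2 fell with EtOH in WT mice and 2 rose in KO mice (beside 12.7% and 23.2% of all genes called). All 6 were higher in EtOH-fed KO than WT mice, with summed values of 11135 to 21513 and 4502 to 8553, and 4 of 6 markers of infiltrating macrophages were higher too (7380 to 14206 and 3563 to 5113). In that comparison 4.69% of all genes passed the test. In pair-fed mice the Kupffer sums overlapped (7352 to 13531 in WT and 7622 to 15314 in KO). The EtOH response of the 6 Kupffer cell markers differed between genotypes by 1.07 to 1.67, and 2 of the 6 passed. For the 6 infiltrating macrophage markers it differed by 0.33 to 1.47, and 2 passed (beside 2.84% of all genes). The part of these cells in the *Hmox1*, *Cd163* and *Lcn2* results was not tested. Of 6 neutrophil markers 2 were listed, with summed values of 34 to 265 in all groups.

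**Figure D5:**
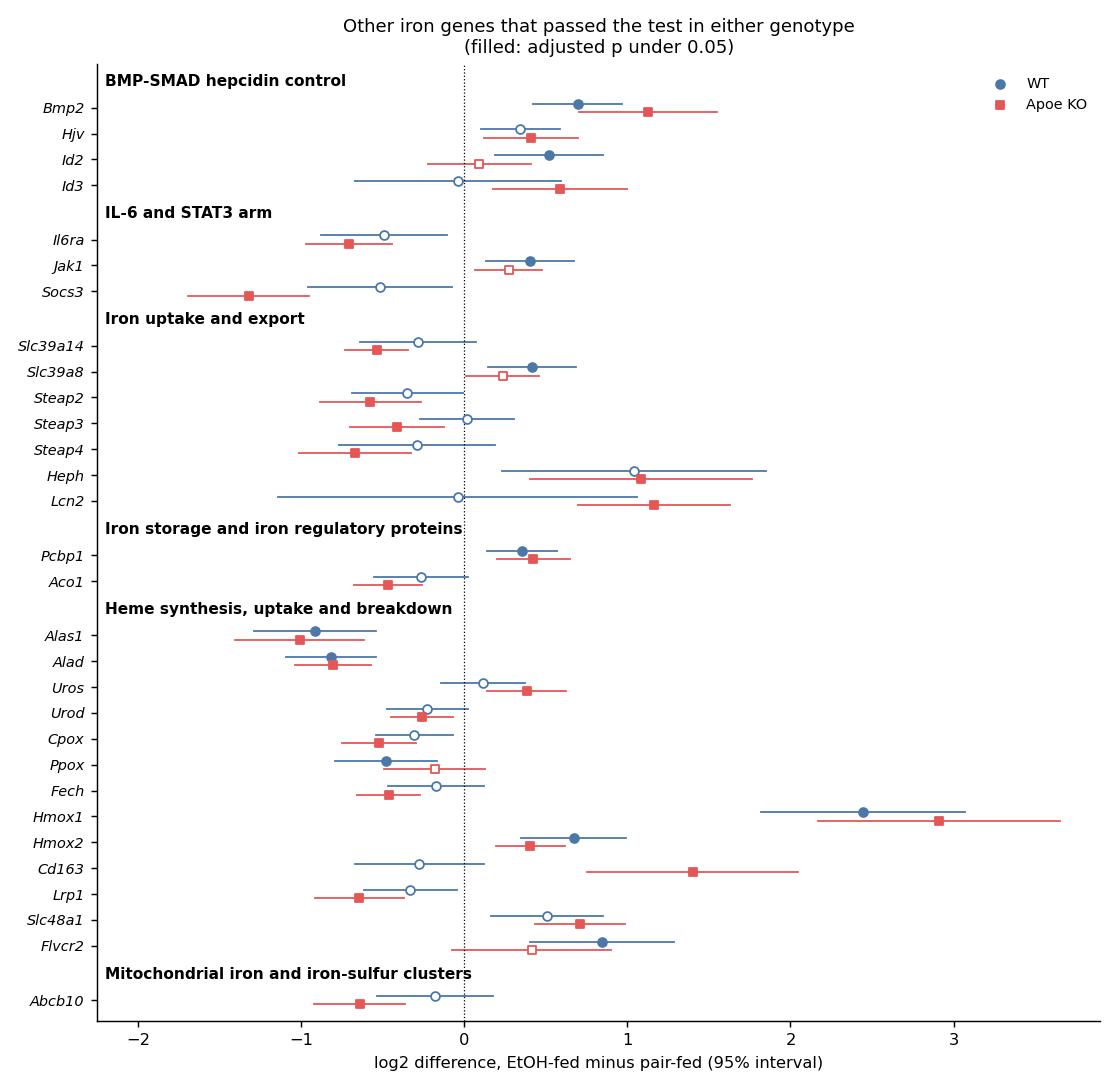
Log2 difference between EtOH-fed and pair-fed mice, with 95% intervals, for the other iron genes that passed the test in WT (blue circles) or *Apoe* KO mice (red squares), by list. Filled points passed (11 in WT and 25 in KO mice), and *Hmox1* has the largest difference in both (2.44 and 2.91).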

How the data were processed

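Liver RNA (polyA-selected) from 18 mice was sequenced, and the deposited table holds 1 column per mouse and the authors' means and comparisons, which were not used. The submitters' notes and methods name Trimmomatic, HISAT2, FeatureCounts, DESeq2 and GRCm38, with versions not given in the sources used here. The authors scaled the read counts to a nearly common total and rounded them, so the values are a normalised signal and not raw counts. Genes listed on more than 1 line (56) had identical values and were used once. The lowest mean over all mice was 12.1, which points to a filter on low values by the authors.

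Groups came from the labels, and each mouse is 1 replicate. Log2(value + 1) was fitted with limma 3.58.1 (R 4.3.3, trend) on the groups compared, or on all 18 mice for the difference in EtOH response. P-values were adjusted by Benjamini-Hochberg over 15052 genes, with a threshold of 0.05. The scripts were tested on simulated data. Alternatives were median-of-ratios scaling, a mean value of at least 50, a pseudocount of 10, mouse weights, a replicate block, a fit of all 4 groups, and leaving out each mouse. In each list and comparison, up to 4 genes were named, those that passed with the largest difference. The 10 genes, the lists and the 20 Mb window were chosen with earlier results of these data known. Permutations in correlations numbered 100000. Promoters are from RefSeq (GRCm38.p6), and gene models from GENCODE M21.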

Additional observations from a re-analysis of the deposited data

Results flagged for a closer look

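In groups of 4 or 5 mice, the gap between an extreme mouse and its nearest neighbour, divided by the range of the group, passed the Dixon limit in 9 of 124 groups tested, where chance gives about 6 (1 in 20). Of these, 4 concerned the 10 genes. *Tfr2* was 14252 in EtOH-fed WT mouse 1 and 12871 to 13081 in the others (gap 0.841 of the range). In EtOH-fed KO mouse 1, whose *Xist* and *Ddx3y* values did not match its label, *Tfr2* was 16560 against 11961 to 12154 (0.951) and *Tfrc* was 956 against 1377 to 1453 (0.872). *Fth1* was 61730 in pair-fed WT mouse 2 and 52158 to 53082 in the others (0.896).

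The other 5 were named genes of the lists. In EtOH-fed KO mice, *Alas1* was 9763 in mouse 2 against 15995 to 17085 (0.882), *Hjv* was 2817 in mouse 4 against 3957 to 4003 (0.967) and *Steap2* was 790 in mouse 4 against 474 to 504 (0.880). *Id2* was 3082 in EtOH-fed WT mouse 4 against 4869 to 5238 (0.862), and *Id3* was 2115 in pair-fed WT mouse 2 against 1466 to 1526 (0.891).

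The EtOH response of *Cd163* differed between genotypes by 1.67 on the log2 scale (adjusted p = 0.019, limma). The call held when any 1 mouse was left out, with the adjusted p closest to the threshold without pair-fed WT mouse 2 (0.04998), and it was lost with the replicate block (1.20, adjusted p = 0.148).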

How the results depend on the processing

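The number of genes called depended on the setting most between genotypes. In pair-fed KO against WT mice it was 261, and 456 with mouse weights. For the 69 other iron genes in that comparison, 3 calls became 5 with a mean value of at least 50 or a pseudocount of 10, and 6 with mouse weights or with all 4 groups in 1 fit. In EtOH-fed mice their 2 calls became 4 with all 4 groups in 1 fit. With median-of-ratios scaling, the share of higher calls went from 70.1% to 50.8% with EtOH in KO mice, from 90.5% to 75.1% in EtOH-fed KO against WT mice and from 91.6% to 77.8% for the difference in EtOH response. The cause was not tested.

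When each mouse was left out, the genes called ran from 1186 to 1904 with EtOH in WT mice, 73 to 670 in pair-fed and 327 to 620 in EtOH-fed KO against WT mice, and 167 to 561 for the difference in EtOH response. Calls among the 10 genes ran from 1 to 3 with EtOH in WT mice, 1 to 3 in pair-fed and 1 to 2 in EtOH-fed KO against WT mice. Those among the other iron genes ran from 7 to 10, 1 to 7 and 1 to 4.

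Some differences that did not pass the test changed sign. *Trf* with EtOH in WT mice was 0.015 with median-of-ratios scaling, 0.088 with mouse weights and −0.073 to 0.094 when a mouse was left out. With EtOH in KO mice, *Slc40a1* was −0.094 with median-of-ratios scaling, −0.00088 with mouse weights and −0.029 to 0.13 without a mouse, and *Id1* was −0.33 to 0.07 without a mouse. In EtOH-fed KO against WT mice, *Hfe* was −0.0049 and *Trf* −0.026 with median-of-ratios scaling, and *Tfr2* was 0.012 with mouse weights and −0.13 to 0.028 without a mouse. *Ftl1* in pair-fed mice was −0.12 to 0.055 without a mouse. For the difference in EtOH response, *Hfe* was −0.082 with median-of-ratios scaling and −0.017 to 0.11 without a mouse, and *Hamp*, at 0.70 with all mice, was −0.059 (without EtOH-fed WT mouse 4) to 1.28.

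Same-numbered mice of 2 groups were treated as unpaired. Their deviations from the group means had a mean correlation of −0.0481 (EtOH in WT), 0.0358 (EtOH in KO), 0.0152 (genotype, pair-fed) and 0.1345 (genotype, EtOH-fed), and in no comparison did every mouse correlate best with its own number. For genotype in EtOH-fed mice, the 4 same-numbered pairs ran from −0.0242 to 0.2298, and mice of different numbers had a mean of −0.0327. A pairing in that comparison is thus not excluded. With the replicate block, 1355, 2772, 392 and 1083 genes were called in these comparisons and 599 for the difference in EtOH response. Among the other iron genes 6 were called with EtOH in WT mice, 6 in pair-fed and 5 in EtOH-fed KO against WT mice, and 2 for the difference in EtOH response. Among the 10 genes, 2 were called in EtOH-fed KO against WT mice, *Hamp2* and *Tfrc* (0.58, adjusted p = 0.0156, limma), while *Hfe* with EtOH in WT mice was no longer called (0.34, adjusted p = 0.134). A mouse with no same-numbered partner adds nothing to a blocked difference. With the block *Trf* was 0.068 with EtOH in WT mice, and with EtOH in KO mice *Id1* was 0.072 and *Slc40a1* was −0.011.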
